A study of Homo sapiens with 12 samples.

Results

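The mitosis and spindle genes described here are 46 genes whose products enter cells into mitosis, build the spindle, hold and separate the chromosomes and divide the cell, and they were chosen by name and function. Each was read from the array probe set annotated to that 1 symbol alone, or from the one with the highest mean over the 12 arrays where a gene had several. Of the 46, 45 had such a probe set among the 18417 genes tested. CENPA was represented only by a probe set shared with a second symbol and is not used. KIFC1 and BIRC5 had 2 probe sets each.

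The study measured gene expression in lymphoma cell lines after knock-down of single NF-kB transcription factors, and asked how each factor shapes expression in Hodgkin and non-Hodgkin lymphoma. U-H01 is a Hodgkin lymphoma line, and HBL-1 comes from a diffuse large B-cell lymphoma of the activated B-cell-like kind. Every array came from cells infected with a doxycycline-inducible short hairpin RNA against RelB or cRel, the controls included. One part of each transduced population received doxycycline, which switches the hairpin on, and the other did not. U-H01 was represented by 2 populations, B1 and B2, where the labels of B2 name a second hairpin sequence, and HBL-1 by 1 population, C. Each population was sampled uninduced and labelled induced, each 2 times, read here as 2 time points. The labels of HBL-1 call them Day1 and Day2. In the titles of U-H01 the number follows Un in uninduced and D in labelled induced arrays. Those titles do not state a time point. This gave 4 uninduced and 4 labelled induced arrays of U-H01, and 2 uninduced and 2 labelled induced arrays of HBL-1. The labels do not spell out which subunit B and C stand for. The labels name no separate cultures within a group, so the p-values rest on a spread between arrays that may be technical.

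Entry into mitosis is driven by CDK1 bound to cyclin A or cyclin B, activated by CDC25 phosphatases and assisted by the Polo-like and Aurora kinases. Kinetochores then bind spindle microtubules under the spindle assembly checkpoint, until the anaphase-promoting complex with CDC20 marks securin and cyclin B for destruction, separase opens cohesin and the cell divides at the spindle midzone. Most of these genes are transcribed in late S phase, G2 and M phase under the DREAM and MMB-FOXM1 complexes, which act through the cell cycle genes homology region. Many of their promoters also hold CCAAT boxes, which a separate CCAAT-binding factor binds. As a group these genes are widely read as markers of proliferation, in lymphoma as elsewhere.

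Promoters of the members are shown because those sequence elements are common to genes of the group although the choice of members did not use them. In the RefSeq promoter table of GRCh38.p14, 39 of the 46 genes had an entry, and the 250 bases before the start were searched on both strands for the CCAAT box and for 2 forms of the homology region, TTTGAA on the one hand and its variant TTTAAA on the other. TTTAAA is its own reverse complement, and CCAAT can share its last base with either of the other motifs and 2 bases with its own reverse complement. CCAAT was found in 82.1% of the 39 against 36.3% of 27305 genes in the table, and 51.3% against 11.3% held it at least 2 times. TTTGAA was found in 53.8% against 15.2%, TTTAAA in 28.2% against 12.8%, and either in 69.2% against 24.6%. CCAAT together with either of them was found in 61.5% of members and 9.1% of all genes. Where a gene had several entries, the one with the most matches was used, for members and for all genes alike. The shares therefore also depend on how many entries a gene has. These shares describe letters in a window and are no evidence of binding. AURKA, BIRC5, BUB3, FOXM1, TPX2, TTK and UBE2C had no entry.

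HMMR held the most matches, 7, and CCNB2, TOP2A and ASPM followed with 6 each. HMMR, CCNB2 and TOP2A, which are also named by the rule for the comparisons, are printed from 5′ to 3′ on the gene's own strand, and capitals mark these motifs or their reverse complements. HMMR lies at chr5:163460382-163460631 on the plus strand, CCNB2 at chr15:59104896-59105145 on the plus strand and TOP2A at chr17:40417897-40418146 on the minus strand, each window ending at the base before the annotated start.
HMMR: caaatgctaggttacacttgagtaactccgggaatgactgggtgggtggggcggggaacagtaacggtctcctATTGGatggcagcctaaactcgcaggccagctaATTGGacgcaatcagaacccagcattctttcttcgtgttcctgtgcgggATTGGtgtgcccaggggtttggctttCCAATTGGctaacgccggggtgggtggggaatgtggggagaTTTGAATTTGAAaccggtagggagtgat
CCNB2: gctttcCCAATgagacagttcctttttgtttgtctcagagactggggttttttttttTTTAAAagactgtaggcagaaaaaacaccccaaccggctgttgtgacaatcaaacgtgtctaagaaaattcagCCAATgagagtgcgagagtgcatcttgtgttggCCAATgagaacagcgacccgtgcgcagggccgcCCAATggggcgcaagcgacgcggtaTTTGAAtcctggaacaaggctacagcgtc
TOP2A: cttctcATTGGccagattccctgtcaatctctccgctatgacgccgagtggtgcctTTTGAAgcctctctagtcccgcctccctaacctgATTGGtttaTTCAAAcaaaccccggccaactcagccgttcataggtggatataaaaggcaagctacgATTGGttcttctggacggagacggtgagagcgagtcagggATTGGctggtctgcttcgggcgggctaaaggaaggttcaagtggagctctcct
HMMR held CCAAT 5 times and TTTGAA 2 times in tandem close to the start. CCNB2 held CCAAT 4 times with TTTGAA and TTTAAA 1 time each, and TOP2A held CCAAT 4 times with TTTGAA 2 times. In the U-H01 comparison described further on their changes were -0.38 ± 0.09, 0.13 ± 0.09 and -0.56 ± 0.08, where CCNB2 did not pass. Between the uninduced lines the differences were -1.14 ± 0.11, 0.47 ± 0.11 and 0.55 ± 0.09, so that the signs differed there among these 3 genes.

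Over all 33297 probe sets, array medians lay between 5.79 and 5.88 on the log2 scale of the deposited values, and lower quartiles between 4.18 and 4.28. Arrays of the same U-H01 group correlated at 0.991 to 0.996 over the tested genes, and induced with uninduced HBL-1 arrays at 0.992 to 0.994. Labelled induced arrays of U-H01 correlated with uninduced ones at only 0.893 to 0.909, about as low as uninduced U-H01 with HBL-1 at 0.887 to 0.898. In an identity check on 6 genes, 4 of 8 U-H01 arrays and 0 of 4 HBL-1 arrays did not match the others of their line. RELB, the gene of RelB, differed by -0.15 ± 0.09 between labelled induced and uninduced U-H01 (adjusted p = 0.209, limma). REL, the gene of cRel, differed by 0.20 ± 0.09 in U-H01 (adjusted p = 0.0716) and by -0.49 ± 0.12 in HBL-1 (adjusted p = 0.121). No knock-down thus passed after adjustment over all genes. Before adjustment the limma p of REL was 0.00168 in HBL-1, where it was lower in both pairs (-0.56 and -0.41). In U-H01 the unadjusted p was 0.0345 for REL, which was higher, and 0.122 for RELB. All directions in U-H01 therefore rest on the labels, the group is called "labelled induced" throughout, and an effect of induction and a difference between cells cannot be told apart there.

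Of 7 measured B-cell markers, 2 stood above the array median of the tested genes in uninduced U-H01, 4 in U-H01 labelled induced and 7 in HBL-1. Their summed log2 levels were 40.8 to 42.4, 52.2 to 54.2 and 70.2 to 71.2. Of 8 markers of Hodgkin Reed-Sternberg cells, 8 stood above the median in uninduced U-H01, with sums of 67.3 to 68.7, 4 in U-H01 labelled induced, with sums of 48.1 to 50.0, and 5 or 6 in HBL-1, with sums of 50.8 to 51.5. Between labelled induced and uninduced U-H01, 3 of the 7 B-cell markers were higher and 1 lower, and 1 of the 8 Reed-Sternberg markers was higher and 6 lower. Of 10 stromal and epithelial markers 1 was higher and 2 lower, and their sums were 62.1 to 63.7 in uninduced and 56.7 to 58.3 in labelled induced arrays. All 3 sums therefore differed between the U-H01 labels without overlap, along with mitotic genes below, and their part in those differences was not tested. Of markers of T and NK cells 1 or 2 of 12 stood above the median in any group, and of myeloid markers 1 of 10.

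In U-H01 the mitotic genes did not move as 1 block. Of the 45, 20 were lower and 14 higher in labelled induced than in uninduced arrays at an adjusted p under 0.05 in limma, against 23.5% of the 18417 genes lower and 22.4% higher. CENPF, CDC25C, TPX2, KIF14, CCNB1 and KIF2C were the lowest of those called, and DLGAP5, BUB1B, MKI67, CCNA2, KIF11 and CDK1 the highest. The median change of the members was 0.02 and that of all tested genes 0.03. Called members made up 75.6% of the list, against 65.8% of all genes above the median level, and the median size of a change without its sign was 0.42 in members and 0.40 in genes above the median level. Over 2-fold differences were seen in 3 members, 6.7% of the list, against 13.0% of all genes. RNA was measured in whole cultures, where fewer cells in mitosis and less RNA per cell cannot be told apart. Each array was also centred on its median over the 18417 tested genes, which shifts all genes alike and moved their median change from 0.03 to 0.18. With this, 19 members were higher and 12 lower, so the split depends on the scaling. The shares of all genes called higher and lower with centring are not given here. Centring ended the calls of AURKA, CDC25B, CDCA8, HMMR, KIF23, KIFC1, MAD2L1 and PLK1 as lower (adjusted p from 0.0528 to 0.465), and CCNB2, CDC20, CDCA3, SKA1 and TTK passed as higher (0.0142 to 0.0275). Called directions of single members did not reverse under any of the 21 alternatives run, although 11 of the 34 called members lost their call in at least 1.

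**Figure D1:**
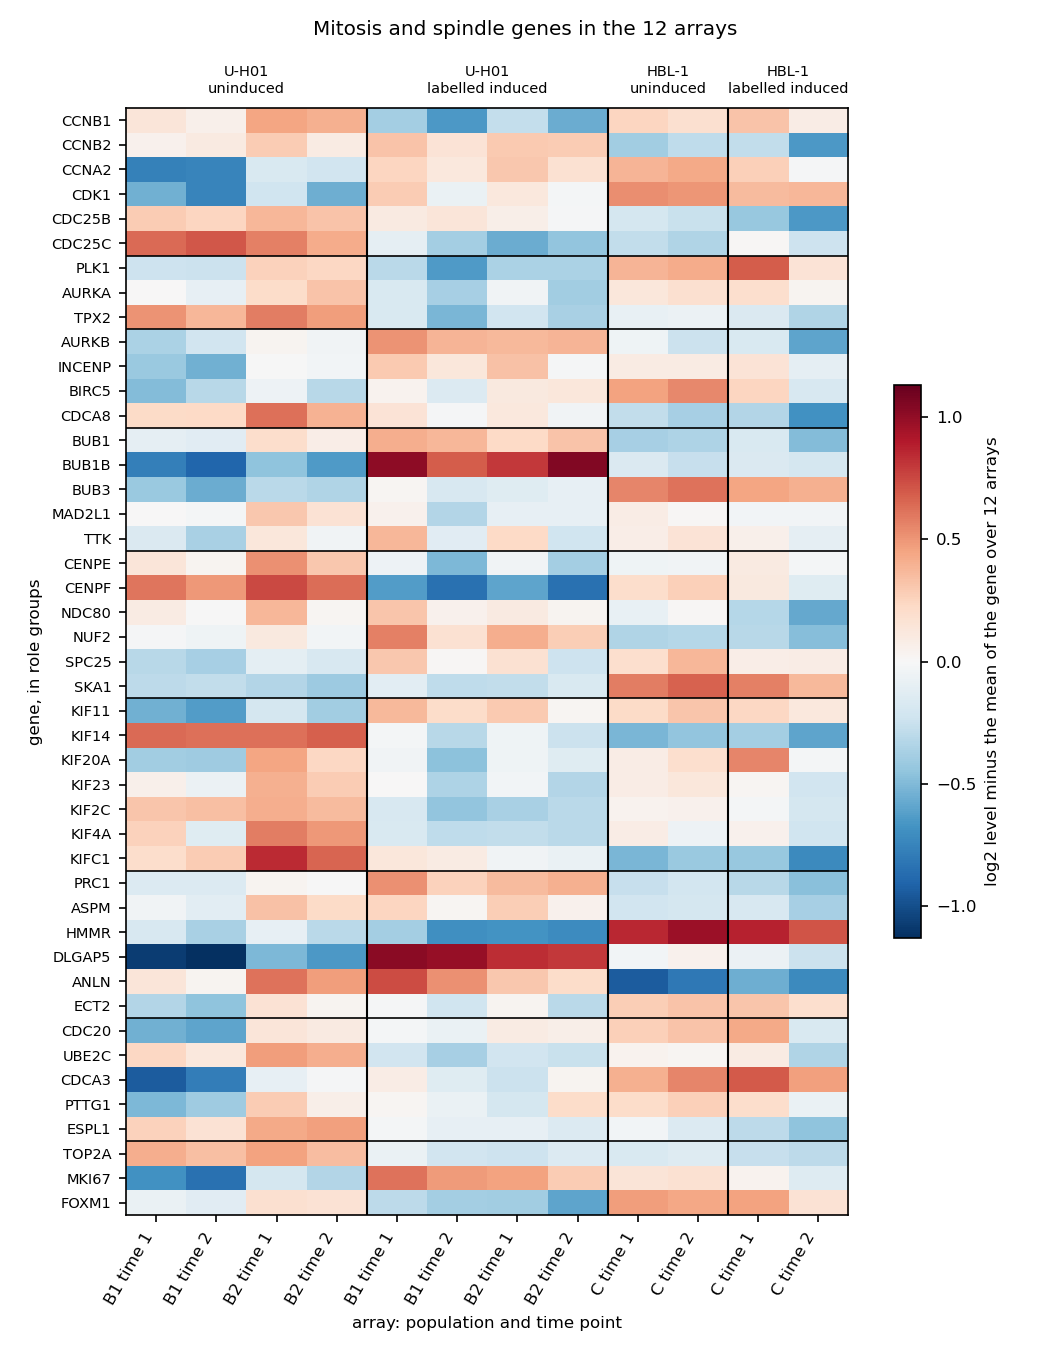
Log2 level of each of the 45 measured genes (one per line, with black lines between role groups) in each of the 12 arrays (columns, by group, population and time point), as the difference from the gene's own mean over the 12 arrays. In U-H01, CENPF, CDC25C, KIF14 and TPX2 are red in the 4 uninduced columns and blue in the 4 labelled induced ones, DLGAP5 and BUB1B are the reverse, and the last HBL-1 column is blue for most genes.

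Among the regulators of mitotic entry, 3 of 6 were lower in labelled induced U-H01 and 2 higher. In what follows, U-H01 levels are log2 values in the order B1 at the first and second time point, then B2 at the first and second, and a change is the fitted log2 difference with its standard error. CCNB1, which encodes cyclin B1, the partner of CDK1 in mitosis, stood at 10.84, 10.76, 11.14 and 11.10 in uninduced and 10.32, 10.05, 10.43 and 10.14 in labelled induced arrays. All 4 labelled induced arrays were below all uninduced ones, with a change of -0.72 ± 0.09 (adjusted p = 1.27e-05). CCNB2, encoding the related cyclin B2, was at 10.01, 10.06, 10.25 and 10.06 and 10.28, 10.12, 10.26 and 10.25, overlapping groups with a change of 0.13 ± 0.09 (adjusted p = 0.267). CCNA2, encoding cyclin A2, which acts from S phase to early mitosis, went the other way, from 9.04, 9.06, 9.63 and 9.59 to 10.05, 9.93, 10.11 and 9.98. Its groups did not overlap, and the change was 0.69 ± 0.11 (adjusted p = 0.000155).

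CDK1, the kinase itself, was at 7.75, 7.54, 8.06 and 7.74 in uninduced and 8.58, 8.22, 8.41 and 8.27 in labelled induced arrays. These ranges did not overlap either, and CDK1 was higher by 0.60 ± 0.09 (adjusted p = 9.03e-05). CDC25C, a phosphatase that activates CDK1 with cyclin B, stood at 7.64, 7.70, 7.57 and 7.42 against 6.90, 6.61, 6.44 and 6.55. Every labelled induced array was lower than every uninduced one, with a change of -0.96 ± 0.09 (adjusted p = 1.25e-06), 1.94-fold lower. Its relative CDC25B differed less, by -0.23 ± 0.08 (adjusted p = 0.0263), and lost its call in 6 of 21 alternatives. Cyclin B1 and CDC25C were thus lower in the same arrays in which CDK1 and cyclin A2 were higher.

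The kinases PLK1 and Aurora A and the Aurora A activator TPX2 were all lower, 3 of 3. TPX2, which also nucleates spindle microtubules, stood at 10.49, 10.36, 10.56 and 10.45 uninduced and 9.80, 9.46, 9.76 and 9.61 labelled induced, with no overlap and a change of -0.80 ± 0.08 (adjusted p = 2.34e-06). PLK1, the Polo-like kinase needed for centrosome maturation and mitotic entry, was at 10.22, 10.21, 10.72 and 10.69 and 10.15, 9.81, 10.10 and 10.09. The 2 labels differed more in B2 than in B1, but the test of that difference did not pass (adjusted p = 0.527, limma). The groups did not overlap, with a change of -0.42 ± 0.11 (adjusted p = 0.00811). AURKA, encoding Aurora A, changed by -0.35 ± 0.10 (adjusted p = 0.00859), from 9.30, 9.20, 9.50 and 9.61 to 9.12, 8.92, 9.26 and 8.90, and these ranges overlapped. With arrays centred on their medians neither PLK1 (-0.27, adjusted p = 0.0703) nor AURKA (-0.20, adjusted p = 0.0979) passed.

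Of the chromosomal passenger complex, which corrects faulty attachments at the centromere and acts in cytokinesis, 3 of 4 subunits were higher and 1 lower. AURKB, its kinase, stood at 8.69, 8.83, 9.08 and 9.01 uninduced and 9.55, 9.43, 9.42 and 9.44 labelled induced. Levels in all 4 labelled induced arrays exceeded the highest uninduced one, and the change was 0.56 ± 0.09 (adjusted p = 0.000288). The scaffold INCENP was higher by 0.44 ± 0.11 (adjusted p = 0.00587) and survivin, encoded by BIRC5, by 0.33 ± 0.10 (adjusted p = 0.018). Borealin, encoded by CDCA8, was lower (-0.31 ± 0.09, adjusted p = 0.0136). BIRC5 no longer passed when U-H01 uninduced replicate 1 or 4 or labelled induced replicate 1 was left out (adjusted p from 0.0621 to 0.0792), and CDCA8 without uninduced replicate 3, without labelled induced replicate 3 or 4 and with centring (0.0503 to 0.168). Aurora A and Aurora B therefore differed in opposite directions between the same arrays.

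The spindle checkpoint genes held the second largest rise of the list. BUB1B encodes BUBR1, a component of the mitotic checkpoint complex that holds back the anaphase-promoting complex. It stood at 9.04, 8.92, 9.36 and 9.17 in uninduced and 10.82, 10.49, 10.62 and 10.86 in labelled induced arrays, with no overlap, a change of 1.58 ± 0.10, 2.98-fold higher (adjusted p = 3.29e-08). The kinase BUB1 (0.32 ± 0.10, adjusted p = 0.0167) and the adaptor BUB3 (0.31 ± 0.08, adjusted p = 0.00752) were also higher, and MAD2L1, encoding MAD2, was slightly lower (-0.23 ± 0.09, adjusted p = 0.0474). TTK, encoding the checkpoint kinase MPS1, did not pass, at 0.17 ± 0.11 (adjusted p = 0.226). In all, 3 of 5 were higher, 1 lower and 1 not called. The call of MAD2L1 was lost in 15 of 21 alternatives, and that of BUB1 without replicate 1 or 2 of either U-H01 group (adjusted p from 0.0594 to 0.0688).

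Kinetochore genes split evenly, with 2 of 6 higher, 2 lower and 2 not called. CENPF, a large protein of the outer kinetochore and nuclear envelope whose level peaks in G2 and M phase, had the largest fall of the list. Its levels were 9.53, 9.42, 9.68 and 9.56 uninduced and 8.29, 8.08, 8.33 and 8.09 labelled induced. More than 1 log2 unit separated the lowest uninduced from the highest labelled induced array, and the change of -1.35 ± 0.08 is 2.54-fold lower (adjusted p = 2.37e-08). CENPE, a kinetochore motor, was lower (-0.49 ± 0.09, adjusted p = 0.000477). Of the NDC80 complex, which binds microtubule ends, NUF2 was higher at 0.35 ± 0.08 (adjusted p = 0.00392) and SPC25 at 0.31 ± 0.10 (adjusted p = 0.0238), whereas NDC80 itself was at 0.00 ± 0.09 (adjusted p = 0.986). SKA1, of a complex that couples kinetochores to microtubules, was at 0.12 ± 0.08 (adjusted p = 0.29). SPC25 lost its call in 5 of the 12 fits with 1 array left out (adjusted p from 0.0533 to 0.107), those without replicate 1 or 2 of either U-H01 group or without labelled induced replicate 3.

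Of the kinesin motors 5 of 7 were lower and 1 higher, and with arrays centred 3 of 7 were lower, since KIFC1 and KIF23 no longer passed (adjusted p = 0.0555 and 0.114). KIF14, a motor of the midzone and cytokinesis, stood at 9.57, 9.56, 9.56 and 9.61 uninduced and 8.91, 8.62, 8.89 and 8.69 labelled induced. No arrays overlapped, and the change was -0.80 ± 0.09 (adjusted p = 5.63e-06). KIF2C, the microtubule depolymerase MCAK, differed by -0.68 ± 0.08 (adjusted p = 1.63e-05), from 9.38, 9.41, 9.48 and 9.43 to 8.89, 8.62, 8.70 and 8.77, also without overlap. KIF4A, KIFC1 and KIF23 were lower, with changes of -0.56, -0.47 and -0.35 and adjusted p of 0.00125, 0.00951 and 0.00957. Both KIFC1 probe sets gave lower group means in labelled induced than in uninduced U-H01, 9.44 against 9.91 and 9.22 against 9.65. KIF4A has a near-identical copy, KIF4B, whose RNA its probes could also bind. The exception was KIF11, the bipolar kinesin Eg5 that pushes the spindle poles apart, at 8.43, 8.35, 8.77 and 8.59 uninduced and 9.34, 9.18, 9.27 and 8.99 labelled induced. Its groups did not overlap, and it was higher by 0.66 ± 0.10 (adjusted p = 9.11e-05). KIF20A did not pass (-0.14 ± 0.14, adjusted p = 0.451).

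DLGAP5, encoding HURP, which stabilises the microtubules that hold the chromosomes, had the largest rise of the 45 genes. It stood at 8.38, 8.32, 8.94 and 8.81 uninduced and 10.47, 10.44, 10.28 and 10.25 labelled induced, with a change of 1.75 ± 0.13, 3.36-fold higher (adjusted p = 1.5e-07). The lowest labelled induced array was over 1 log2 unit above the highest uninduced one, and the pair differences were larger in B1 (2.09 and 2.12) than in B2 (1.34 and 1.45). The test of that difference between populations did not pass, and did so in 3 of 21 alternatives. PRC1, which bundles midzone microtubules, was higher at 0.46 ± 0.09 (adjusted p = 0.000626). HMMR, a spindle and hyaluronan-binding protein, was lower at -0.38 ± 0.09 (adjusted p = 0.00287), a call lost with centring (adjusted p = 0.0528). ANLN, ECT2 and ASPM, which act in the contractile ring, in its activation and at the spindle poles, were at 0.13 ± 0.14, 0.02 ± 0.11 and 0.05 ± 0.09, with adjusted p of 0.533, 0.907 and 0.699.

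Around the anaphase-promoting complex, UBE2C, its ubiquitin-conjugating enzyme, was lower at -0.58 ± 0.09 (adjusted p = 0.000135), with 9.26, 9.15, 9.50 and 9.44 uninduced and 8.81, 8.66, 8.81 and 8.77 labelled induced and no overlap. ESPL1, encoding separase, was lower at -0.42 ± 0.08 (adjusted p = 0.00113). CDC20, the activator, PTTG1, encoding securin, and CDCA3, a trigger of WEE1 destruction, did not pass at 0.24 ± 0.13, 0.13 ± 0.14 and 0.39 ± 0.16, with adjusted p of 0.154, 0.5 and 0.0685. PTTG1 has near-identical copies, but the group means of PTTG2 lay at 3.22 to 3.43 and those of PTTG3P at 3.99 to 4.36, at or below the lower quartile of the arrays or close to it.

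MKI67, which encodes the Ki-67 antigen used to score dividing cells, and TOP2A, the topoisomerase that untangles sister chromatids, moved in opposite directions. MKI67 stood at 9.32, 9.16, 9.81 and 9.67 uninduced and 10.62, 10.48, 10.45 and 10.29 labelled induced, with no overlap and a change of 0.97 ± 0.12 (adjusted p = 2.45e-05). TOP2A stood at 10.57, 10.50, 10.61 and 10.50 and 10.08, 9.94, 9.92 and 10.00. Its groups did not overlap either, and the change was -0.56 ± 0.08 (adjusted p = 4.47e-05). FOXM1, the transcription factor that raises many of these genes in G2, was at 8.76, 8.70, 9.01 and 9.00 and 8.54, 8.45, 8.44 and 8.24, lower in every labelled induced array with a change of -0.45 ± 0.10 (adjusted p = 0.00214). MYBL2, the other factor of the MMB-FOXM1 pathway, was at -0.01 ± 0.09 (adjusted p = 0.948).

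**Figure D2:**
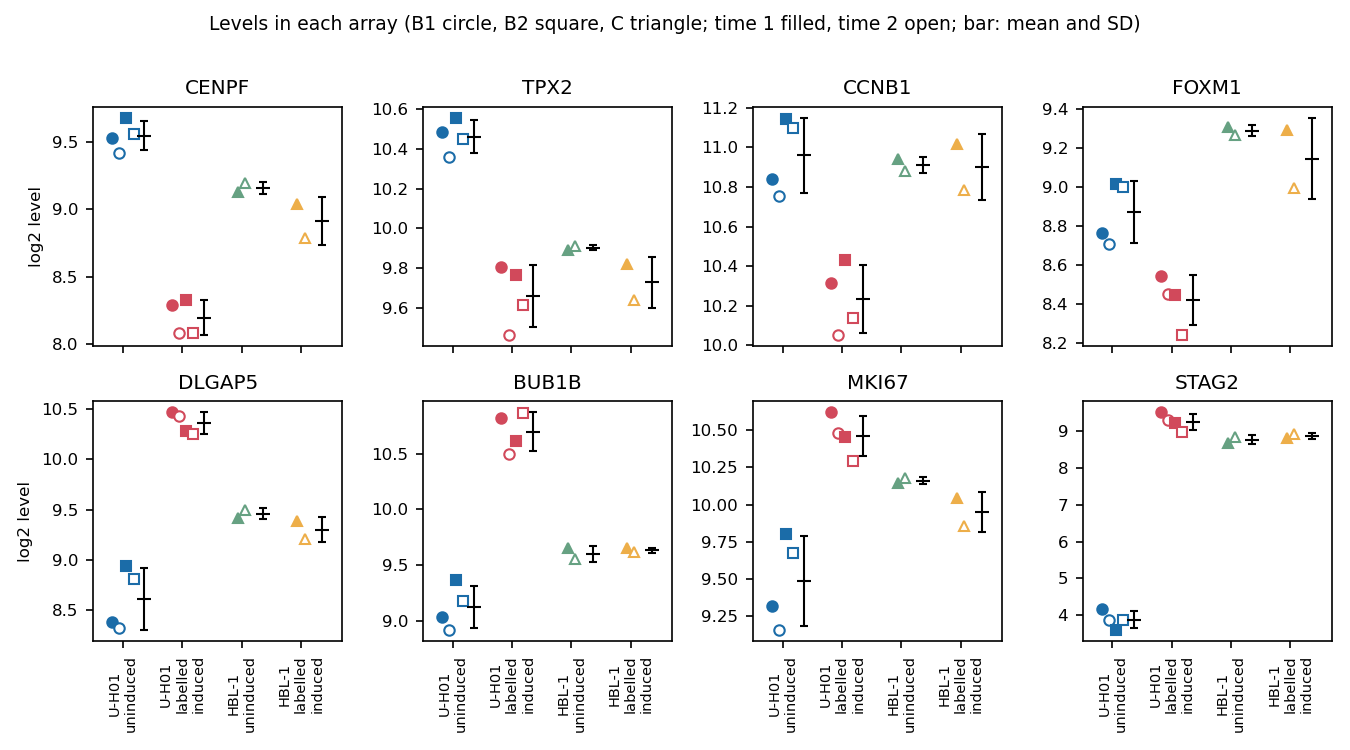
Log2 level (vertical axis, one scale per panel) of 7 mitosis genes and of the cohesin gene STAG2 in each array, by group, with the mean and SD of each group as a bar. CENPF, TPX2, CCNB1 and FOXM1 are lower in all 4 labelled induced than in all 4 uninduced U-H01 arrays, DLGAP5, BUB1B and MKI67 are higher, and STAG2 stands near 4 in uninduced U-H01 and near 9 in the other groups.

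**Figure D3:**
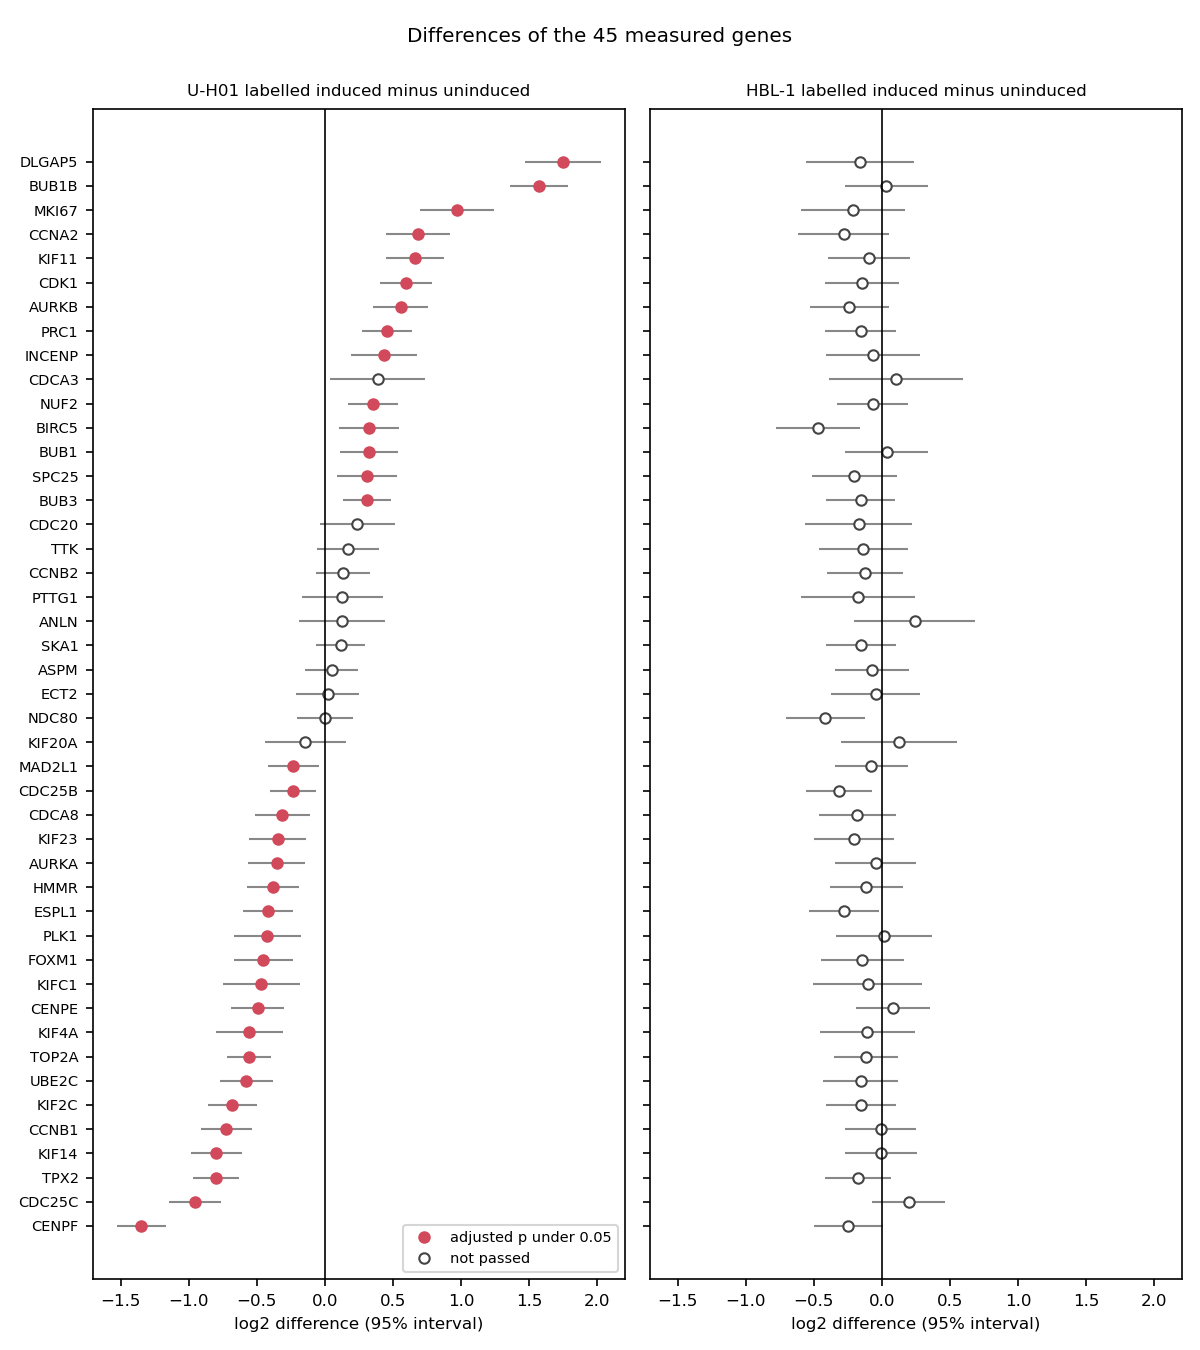
Change of each of the 45 genes on the log2 scale (horizontal axis, with unadjusted 95% intervals as grey lines), sorted by the U-H01 value, in U-H01 on the left and HBL-1 on the right, filled where the adjusted p is under 0.05. U-H01 values run from -1.35 for CENPF to 1.75 for DLGAP5 with 34 filled points, and HBL-1 values from -0.47 to 0.24 with none.

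Other genes of the same machinery were read from lists of genes by function. Of 18 genes of condensin and cohesin, the rings that fold chromosomes and hold sisters together, 13 were higher and 1 lower in labelled induced arrays, with a median change of 0.54 against 0.03 over all genes tested. Of all tested genes 22.4% were higher and 23.5% lower, and 65.8% of genes above the median level were called. STAG2, a core subunit of cohesin, accounted for the largest difference, at 4.18, 3.86, 3.61 and 3.86 in uninduced and 9.52, 9.31, 9.23 and 8.99 in labelled induced arrays and between 8.68 and 8.93 in the 4 HBL-1 arrays. Its uninduced U-H01 levels lie at or below the lower quartile of the arrays, where a fold is understated, and the change of 5.38 ± 0.10 is 41.7-fold higher (adjusted p = 3.73e-13). SMC3, another core subunit, was higher by 1.09 ± 0.08 (adjusted p = 2.77e-07). Which of induction and a difference between cells goes with the STAG2 levels cannot be told apart.

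The counts that follow stand beside 22.4% of all genes higher and 23.5% lower, and 65.8% of genes above the median level called in either direction. Among 32 other measured kinetochore and centromere genes 15 were higher and 10 lower, led by KNTC1 (1.41 ± 0.08) and ZWILCH (1.40 ± 0.10), both of the complex that loads dynein and checkpoint proteins (adjusted p = 8.15e-09 and 1.69e-07). Of 26 other spindle, centrosome and motor genes 14 were higher and 6 lower, led by CKAP2L at -1.08 ± 0.08 and NUSAP1 at 0.86 ± 0.08 (adjusted p = 1.08e-07 and 1.8e-06). Of 8 other cytokinesis genes 4 were higher, among them SEPTIN9 (2.66 ± 0.13) and citron kinase, encoded by CIT (1.53 ± 0.08), and 1 lower (adjusted p = 2.24e-09 and 5.63e-09). Of 14 measured subunits and regulators of the anaphase-promoting complex 6 were higher, with ANAPC5 at 1.31 ± 0.08 and ANAPC7 at 1.02 ± 0.08, and 4 lower (adjusted p = 2.23e-08 and 4.56e-07), which became 8 and 2 with arrays centred. Of 13 kinases and phosphatases of mitotic entry and exit and their regulators 6 were higher, led by the histone H3 kinase HASPIN (1.73 ± 0.10) and cyclin F, encoded by CCNF (0.99 ± 0.11), and 3 lower (adjusted p = 1.69e-08 and 7.78e-06). Of 22 factors that switch the mitotic genes on or off 9 were higher, with E2F2 at 1.94 ± 0.09 and NFYB, a subunit of the CCAAT-binding factor, at 1.30 ± 0.08, and 4 lower (adjusted p = 1.69e-09 and 1.69e-08).

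In HBL-1 no member passed the test. None of the 45 was called higher or lower in limma, against 0.418% of all genes higher and 0.19% lower. At an unadjusted p under 0.05 there were 4 members, and 1807 genes or 9.8% of all tested. The smallest adjusted p of a member was 0.222. Values for 37 of 45 members were negative, with a median of -0.14 against -0.01 over all genes. With each line fitted alone, which leaves HBL-1 1 residual degree of freedom, BIRC5 and NDC80 passed as lower, with adjusted p of 0.00887 and 0.0261. The shares of all genes above belong to the fit of all arrays. That of the HBL-1 fit is not given here, so these calls are not read as particular to the members.

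The 2 HBL-1 pairs differed. At the first time point 25 of 45 members were below 0 in the labelled induced array, with a median difference of -0.01, and at the second 41 of 45, with a median of -0.25, whereas 51.8% and 51.9% of all genes were below 0. For 42 of 45 members the second pair gave the lower value. Over both pairs 24 members were lower in each, against 30.3% of all genes, and 3 higher in each. BIRC5, encoding survivin, stood at 8.65 and 8.74 uninduced and 8.43 and 8.02 labelled induced, in the order of the time points, with a change of -0.47 ± 0.14 (adjusted p = 0.222). NDC80 differed by -0.24 in the first pair and -0.59 in the second, with a change of -0.42 ± 0.13 (adjusted p = 0.264). In both genes the labelled induced arrays were below the uninduced ones, and the second lower than the first.

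CDC25B (-0.31 ± 0.11), ESPL1 (-0.28 ± 0.12), CENPF (-0.25 ± 0.11) and CCNA2 (-0.28 ± 0.15) followed by size of p, with adjusted p of 0.324, 0.458, 0.527 and 0.622. CDK1 was at -0.15 ± 0.12, CCNB1 at -0.01 ± 0.12, PLK1 at 0.01 ± 0.16, AURKA at -0.05 ± 0.14, FOXM1 at -0.14 ± 0.14, MKI67 at -0.21 ± 0.17, TOP2A at -0.12 ± 0.11 and MYBL2 at -0.09 ± 0.13, with adjusted p between 0.815 and 0.995. For CCNB1 the 95% interval ran from -0.27 to 0.25 and for MKI67 from -0.59 to 0.17, with 2 HBL-1 arrays a group. These bounds use the spread shared by all 12 arrays, so they assume that HBL-1 varies like U-H01. None of the 133 measured genes on the 7 other lists of mitotic machinery was called in HBL-1 in the fit of all 12 arrays. The smallest p on each list belonged to CENPM (-0.46 ± 0.14) and SKA2 (-0.34 ± 0.14) of the centromere, BORA (0.33 ± 0.11) and TROAP (-0.32 ± 0.13) of the spindle, SEPTIN9 (0.26 ± 0.18) and RHOA (0.13 ± 0.10) of cytokinesis and NCAPH2 (-0.32 ± 0.12) and NCAPH (-0.26 ± 0.11) of condensin. On the other lists they were CDC16 (0.23 ± 0.11) and ANAPC2 (-0.19 ± 0.12) of the anaphase-promoting complex, the CDK1-inhibiting kinases PKMYT1 (-0.33 ± 0.13) and WEE1 (-0.30 ± 0.16), and E2F1 (-0.42 ± 0.10) and RBL1 (-0.48 ± 0.13) among the factors. With each line fitted alone CENPM, E2F1 and RBL1 passed as lower (adjusted p = 0.0102, 0.0212 and 0.00684) and CDKN1A, which encodes the CDK inhibitor p21 and is named here after its value was seen, as higher (0.57, adjusted p = 0.000677). RBL1 and CDKN1A also passed without the 4 U-H01 arrays labelled induced (adjusted p = 0.0462 and 0.0279), an alternative added after the data were seen. For neither of these fits is the share of all genes called given here.

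The change in U-H01 differed from the change in HBL-1 in 20 members, 12 with the higher value in U-H01 and 8 with the lower one, against 15.5% and 17% of all genes. Called members made up 44.4% of the list, against 47.3% of genes above the median level. The difference was 1.91 ± 0.22 for DLGAP5, 1.54 ± 0.17 for BUB1B and 1.18 ± 0.21 for MKI67, with adjusted p of 2.56e-05, 1.67e-05 and 0.000877. It was -1.15 ± 0.15 for CDC25C and -1.10 ± 0.14 for CENPF (adjusted p = 7.51e-05 and 5.81e-05). CCNB1 (-0.72 ± 0.15), CDK1 (0.74 ± 0.15) and TOP2A (-0.44 ± 0.13) also passed, with adjusted p of 0.00228, 0.00217 and 0.0209, and PLK1, AURKA, FOXM1 and MYBL2 did not (0.118, 0.198, 0.214 and 0.764). Centred on array medians, 14 members were higher and 5 lower, and the call of TOP2A was lost (adjusted p = 0.123), as it was without any 1 of the HBL-1 arrays (0.0817 to 0.133). Leaving out 1 HBL-1 array left a lone sample assumed to vary like the others and gave 6 higher without either array of the second time point and 4 lower without either of the first.

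Between the uninduced lines the members again differed in both directions. Of 45, 15 were higher and 16 lower in U-H01 than in HBL-1, against 20.8% and 22.1% of all genes, with a median of 0.05 against -0.03. Called members made up 68.9%, against 61.3% of genes above the median level. HMMR had the largest deficit in U-H01, at 8.03, 7.85, 8.11 and 7.91 against 9.06 and 9.18 in HBL-1, a difference of -1.14 ± 0.11 (adjusted p = 1.9e-06). ANLN, encoding the actin-binding protein anillin of the contractile ring, had the largest excess, at 7.94, 7.83, 8.42 and 8.27 against 6.86 and 6.99, a difference of 1.19 ± 0.18 (adjusted p = 0.000112). Neither gene's ranges overlapped between the lines. CDK1, BUB3, SKA1, CDCA3 and CCNA2 were also lower in U-H01, with differences of -1.03, -0.99, -0.95, -0.93 and -0.88, and KIF14, KIFC1, CDC25C, CDCA8 and TPX2 higher, with 1.12 ± 0.11, 0.96 ± 0.16, 0.89 ± 0.11, 0.70 ± 0.11 and 0.56 ± 0.10.

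FOXM1 (-0.42 ± 0.12), MKI67 (-0.67 ± 0.15) and PLK1 (-0.40 ± 0.14) were lower in uninduced U-H01 (adjusted p = 0.0135, 0.00272 and 0.0337) and TOP2A higher (0.55 ± 0.09, adjusted p = 0.000316), while CCNB1 (0.05 ± 0.10) and AURKA (-0.04 ± 0.12) did not pass (adjusted p = 0.769 and 0.819). BIRC5 (-0.80 ± 0.12) and MYBL2 (-1.57 ± 0.11) were lower as well (adjusted p = 0.00016 and 1.17e-07). A fit without 1 uninduced HBL-1 array fills its place from the time difference of the labelled induced HBL-1 arrays. It therefore does not test how far a difference hangs on that array. Without that of the second time point the difference was -0.29 for FOXM1, -0.56 for MKI67, -0.12 for PLK1 and -0.75 for CDCA3. Without that of the first it was -0.55 for FOXM1. The 2 uninduced HBL-1 arrays stood at 9.31 and 9.27 for FOXM1, 10.14 and 10.18 for MKI67, 10.84 and 10.88 for PLK1 and 8.88 and 9.03 for CDCA3. The calls between the uninduced lines rest on these 2 arrays. PLK1 lost its call in 5 of 21 alternatives in all, the fit without the second array among them.

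Counts on the lists of related genes stand beside 20.8% of all genes higher and 22.1% lower, and 61.3% of genes above the median level called. Here 13 of 18 condensin and cohesin genes were lower in uninduced U-H01 and 2 higher, with STAG2 at -4.88 ± 0.12 and ESCO2 at -1.73 ± 0.13. Of 32 kinetochore genes 16 were lower, with KNTC1 at -1.65 ± 0.09 and CENPP at -1.23 ± 0.11, and 10 higher. Of 26 spindle genes 8 were lower and 6 higher, with MELK at 1.24 ± 0.10 and CEP192 at 1.13 ± 0.10, and of 8 cytokinesis genes 4 were lower and 1 higher, with SEPTIN9 at -1.38 ± 0.15 and CDCA2 at -1.14 ± 0.14. Of 14 genes of the anaphase-promoting complex 8 were lower, with ANAPC7 at -1.20 ± 0.10 and ANAPC5 at -1.08 ± 0.10, and 1 higher. Of 13 kinases and phosphatases 6 were lower and 5 higher, with WEE1 at -1.60 ± 0.14 and CDC14B at 2.54 ± 0.28, and of 22 factors 12 were lower and 4 higher, with TFDP1, the partner of E2F proteins, at -1.98 ± 0.12 and RB1 at -1.65 ± 0.11. The 96 genes of these lists called between the uninduced lines rest likewise on 2 uninduced HBL-1 arrays. Fits without 1 of these arrays are not read here.

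Between the arrays labelled induced, 16 members were higher and 10 lower in U-H01 than in HBL-1, against 18% and 20.6% of all genes, with a median of -0.02 against 0.00. Called members made up 57.8%, against 57.3% of genes above the median level. HMMR was again lowest, at 7.83, 7.51, 7.54 and 7.50 against 9.08 and 8.93, a difference of -1.41 ± 0.11 (adjusted p = 3.09e-07), and ANLN again highest, at 8.54, 8.32, 8.10 and 8.01 against 7.25 and 7.08, a difference of 1.08 ± 0.18 (adjusted p = 0.000288). PLK1, FOXM1, CENPF, SKA1 and CCNB1 were lower, with differences of -0.84, -0.73, -0.72, -0.68 and -0.67, and BUB1B, DLGAP5, AURKB, PRC1 and NUF2 higher, with 1.06 ± 0.12, 1.06 ± 0.16, 0.79 ± 0.12, 0.78 ± 0.10 and 0.75 ± 0.10. MKI67 was higher (0.51 ± 0.15, adjusted p = 0.0162) and AURKA lower (-0.35 ± 0.12, adjusted p = 0.0318), whereas CDK1 (-0.29 ± 0.11) and TOP2A (0.11 ± 0.09) did not pass (adjusted p = 0.0531 and 0.427). MYBL2 (-1.49 ± 0.11) and CDCA3 (-0.65 ± 0.20) were lower and CCNB2 (0.73 ± 0.11) and KIFC1 (0.60 ± 0.16) higher (adjusted p = 2.23e-07, 0.0186, 0.000163 and 0.00906). A fit without 1 labelled induced HBL-1 array fills its place from the time difference of the uninduced ones. Without that of the second time point the difference was 0.40 for KIFC1, 0.40 for MKI67, -0.46 for AURKA and -0.84 for CDCA3. Without that of the first it was -0.56 for PLK1, 0.62 for MKI67, -0.24 for AURKA and -0.46 for CDCA3. The 26 calls rest on 2 labelled induced HBL-1 arrays. Without U-H01 labelled induced replicate 1 MKI67 lost its call (adjusted p = 0.0503). CDCA3 lost its call without replicate 3 (0.0518) and AURKA without replicate 4 (0.0874).

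For the lists of related genes the shares of all genes were 18% higher and 20.6% lower, and 57.3% of genes above the median level were called. Here 5 of 18 condensin and cohesin genes were higher in U-H01 labelled induced and 2 lower, with NCAPD3 at 1.05 ± 0.13 and ESCO2 at -0.68 ± 0.13. Of 32 kinetochore genes 7 were higher, with KNL1 at 1.65 ± 0.11 and CENPC at 1.49 ± 0.11, and 10 lower. Of 26 spindle genes 5 were higher, with NUSAP1 at 1.83 ± 0.10 and MELK at 1.59 ± 0.10, and 7 lower, and of 8 cytokinesis genes 3 were higher and 3 lower, with CIT at 1.26 ± 0.10 and SEPTIN9 at 1.02 ± 0.15. Of 14 genes of the anaphase-promoting complex 2 were higher and 6 lower, with CDC16 at -1.05 ± 0.10 and UBE2S at -1.34 ± 0.15. Of 13 kinases and phosphatases 5 were higher and 2 lower, with HASPIN at 1.76 ± 0.12 and CDC25A at -1.08 ± 0.13, and of 22 factors 8 were higher and 8 lower, with RB1 at -2.13 ± 0.11. The 73 called genes of these lists rest on 2 labelled induced HBL-1 arrays. For ESCO2 the difference was -0.51 without that of the first time point, with its place filled as above.

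Set side by side, 10 members were higher in U-H01 in both line comparisons, 7 were lower in both and 4 passed in opposite directions. These are 22.2%, 15.6% and 8.9% of the members, against 8.81%, 12.1% and 5.21% of all genes and 14.7%, 16.7% and 8.74% of genes above the median level. ANLN, KIFC1, KIF14, CDCA8, CCNB2, CDC25B, NUF2, BUB1, ESPL1 and ASPM were the 10 higher, and HMMR, BUB3, SKA1, CDCA3, PLK1, FOXM1 and ECT2 the 7 lower. DLGAP5, BUB1B and MKI67 were lower in uninduced U-H01 and higher in U-H01 labelled induced than in HBL-1 of the same label, and CENPF the reverse. These 4 calls between the uninduced lines rest on 2 uninduced HBL-1 arrays. Those stood at 9.13 and 9.19 for CENPF, 9.42 and 9.50 for DLGAP5, 10.14 and 10.18 for MKI67 and 9.65 and 9.55 for BUB1B. With the array of the first time point left out and its place filled as above, the difference was 0.23 for CENPF and -0.44 for BUB1B. Without that of the second it was -0.72 for DLGAP5, -0.56 for MKI67 and -0.51 for BUB1B.

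**Figure D4:**
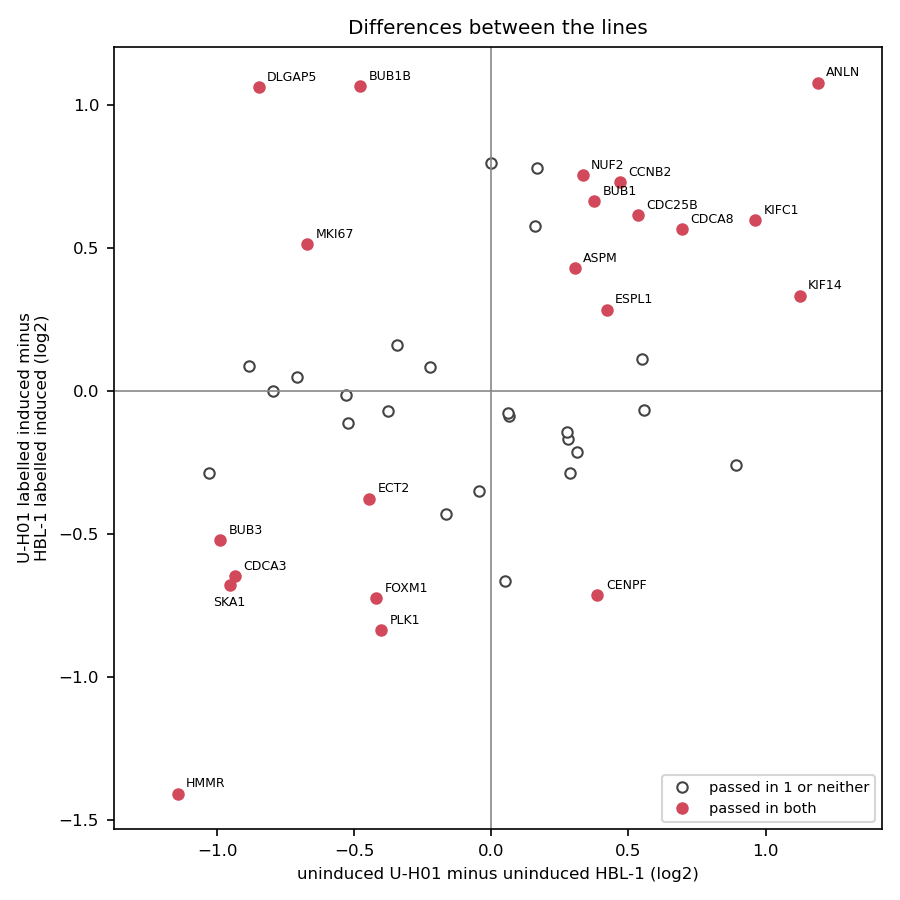
Difference between U-H01 and HBL-1 for each of the 45 genes on the log2 scale, in uninduced arrays (horizontal axis) and in arrays labelled induced (vertical axis), filled and named where both passed. HMMR at -1.14 and -1.41 and ANLN at 1.19 and 1.08 stand at the ends, and DLGAP5, BUB1B and MKI67 lie at the upper left and CENPF at the lower right, where the signs differ.

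The 2 uninduced populations of U-H01 were also set against each other, a comparison added after the values were seen. Levels were higher in B2 than in B1 for 43 of 45 members, with a median of 0.29 against 0.02 over all genes, and both B2 arrays stood above both B1 arrays in 34 of 45, against 26.7% of all genes. In limma 10 members were higher in B2 and 0 lower, against 0.874% and 2.57% of all genes. CDCA3 was at 7.54 and 7.69 in B1 and 8.38 and 8.46 in B2, a difference of 0.81 ± 0.14 (adjusted p = 0.00988). CDC20, the activator of the anaphase-promoting complex, was at 9.21 and 9.16 in B1 and 9.89 and 9.85 in B2, a difference of 0.69 ± 0.14 (adjusted p = 0.0236). KIF20A (0.74 ± 0.16), PTTG1 (0.63 ± 0.15), CCNA2 (0.56 ± 0.11), DLGAP5 (0.52 ± 0.11), KIFC1 (0.51 ± 0.12), MKI67 (0.50 ± 0.11), ECT2 (0.49 ± 0.11) and ANLN (0.46 ± 0.11) made up the rest, with adjusted p between 0.025 and 0.0467. PLK1 (0.49 ± 0.14), CCNB1 (0.32 ± 0.11), AURKA (0.31 ± 0.13), FOXM1 (0.27 ± 0.11), MYBL2 (0.29 ± 0.12), CDK1 (0.26 ± 0.11) and TOP2A (0.03 ± 0.11) did not pass. Leaving out any 1 of the 4 uninduced U-H01 arrays ended all 10 calls, leaving out any HBL-1 array left 6, and testing all probe sets of the table left 0, so the calls rest on 2 arrays a population while the direction is shared by most members.

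In the arrays labelled induced the same 2 populations gave 28 of 45 members lower in B2, with a median of -0.03, and no member passed in limma, against 0.0271% of all genes higher and 0.0814% lower. At an unadjusted p under 0.05 there were 1 member and 1558 genes. CCNB1, CDK1, PLK1, AURKA, FOXM1, MKI67, TOP2A and MYBL2 ranged from -0.18 to 0.12. The test of whether the U-H01 change itself differed between the populations called ANLN lower in B2 (-0.84 ± 0.16, adjusted p = 0.04) and no other member, against 0.228% of all genes lower and 0.38% higher. ANLN stood at 7.94, 7.83, 8.42 and 8.27 uninduced and 8.54, 8.32, 8.10 and 8.01 labelled induced, higher on the label in B1 and lower in B2. This call was lost with the replicate block, which gave 0 calls, and in each of the 12 fits with 1 array left out, where CDCA3 was called instead without U-H01 labelled induced replicate 2. Values for 43 of 45 members were negative in that comparison, with a median of -0.32 against 0.00 over all genes, and MKI67 (-0.68 ± 0.15, adjusted p = 0.0743) missed the threshold. Within pairs, the members had medians of 0.27 and 0.06 for B1 and of -0.27 and -0.26 for B2, and uninduced arrays had median levels of 8.95 and 8.83 in B1 and 9.30 and 9.15 in B2, against 8.83 to 9.00 in the 4 labelled induced arrays.

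**Figure D5:**
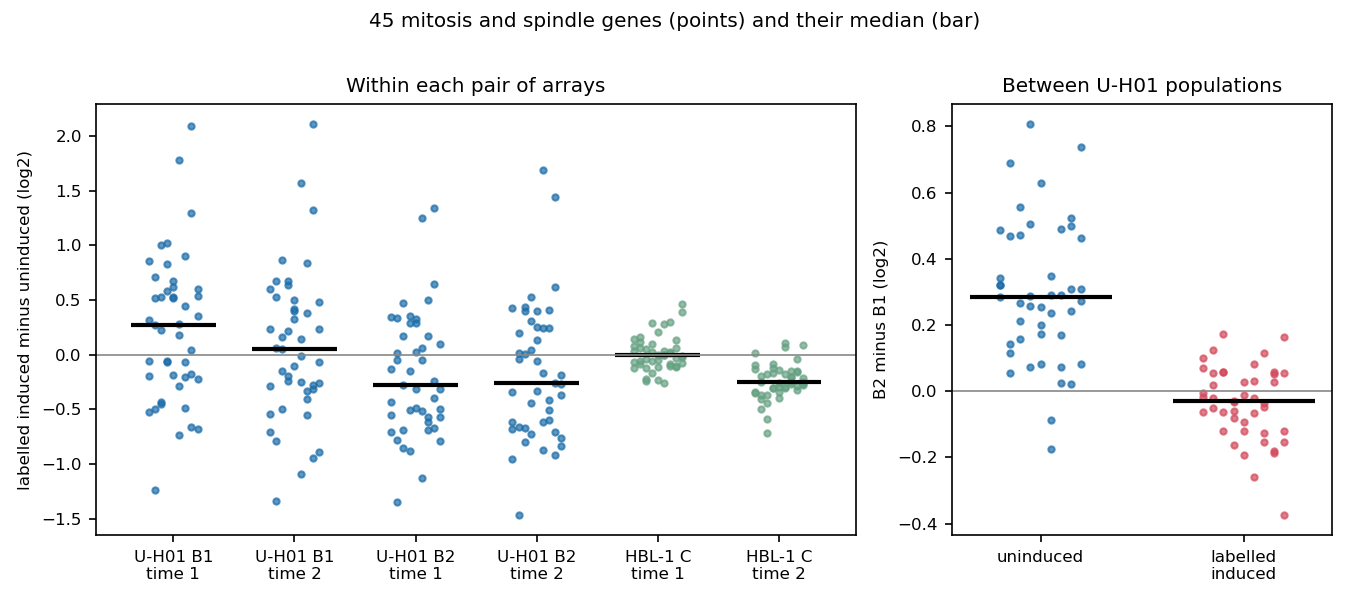
Left, difference between the labelled induced and the uninduced array of each pair for the 45 genes (points, log2 scale), with the median as a bar. Right, B2 minus B1 for the same genes among uninduced and labelled induced U-H01 arrays. The pair medians are above 0 in B1 and below 0 in B2, the second HBL-1 pair has a median of -0.25 against -0.01 in the first, and in uninduced arrays nearly all points are above 0.

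For U-H01 the time points rest on the numbers in the titles. Averaged over the labels, levels at the second time point were below those at the first for 43 of 45 members in each line, with medians of -0.11 in U-H01 and -0.08 in HBL-1 against 0.01 and -0.01 over all genes. In HBL-1 the 2 labels differed in this. Among the labelled induced arrays 42 of 45 members were lower at the second time point with a median of -0.21, whereas 33 of 45 were higher in the uninduced arrays, with a median of 0.04. The labelled induced HBL-1 array of the second time point was the low one, with 12 of 45 members above their own mean over the 12 arrays against 26 or 27 in the other 3 HBL-1 arrays. In U-H01 33 and 41 members were lower in the uninduced arrays of B1 and B2, with medians of -0.07 and -0.12, and 44 and 33 in the labelled induced ones, with medians of -0.21 and -0.07. No member passed in limma in either line, where 0% of all genes were called higher and 0% lower in U-H01 and 0% and 0% in HBL-1. At an unadjusted p under 0.05 there were 5 members and 1440 genes in U-H01, and 1 member and 787 genes in HBL-1. The lowest value of a member was -0.33 in U-H01 and -0.31 in HBL-1, and CCNB1, CDK1, PLK1, AURKA, FOXM1, MKI67, TOP2A and MYBL2 ranged from -0.26 to -0.06 in U-H01 and from -0.25 to -0.01 in HBL-1.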

How the data were processed

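RNA of 12 samples was amplified and hybridised to 1-colour expression arrays with biotin label. The values the authors deposited are log2 levels from RMA, and Partek was also used, per the submitters' processing notes, with versions not given in the sources used here. RMA corrects background, makes the arrays' distributions alike and summarises probe sets, so a shift common to all genes can be lost. Of 33297 probe sets, 19460 carried 1 symbol, 1754 several and 12083 none. The 18417 genes with 1 symbol were tested, each by the probe set with the highest mean. Gene names of 19429 probe sets matched the reference table of GRCh38.p14 and 0 changed. Precision is limited by the number of arrays, and low levels understate a fold. No 2 arrays held identical values (0 pairs).

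Each comparison was fitted with limma 3.58.1 (lmFit, eBayes; R 4.3.3) to all 12 arrays, with population, time point within line and induction within line as terms, and with separate induction terms for B1 and B2 for their comparison. Two-sided p-values received Benjamini-Hochberg adjustment over the 18417 genes, with calls at an adjusted p under 0.05. The model was tested on simulated data. Groups came from the titles, and so did the numbers read as time points in U-H01.

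The rule for named genes takes, in the comparisons of the labels within each line and between the lines, the 6 largest rises and falls among called members (where fewer than 6 are called, the 6 smallest p). It adds CCNB1, CDK1, PLK1, AURKA, FOXM1, MKI67, TOP2A and MYBL2 throughout, the smallest p of each role group and the 2 smallest of each list of related genes. The members and lists were chosen with earlier results of these data known.

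Arrays of 1 population and time point are paired, since the labels' protocols call them parts of 1 transduced population. The correlation of a pair's deviations from its group means was 0.14 and -0.03 in B1, 0.10 and 0.03 in B2, and 0.10 and 0.10 in C. Alternatives were a replicate block, other scalings, eBayes options, probe sets, filters and terms, each line alone and each array left out. Sequences came from RefSeq. Figures used matplotlib 3.10.9 and Python 3.11.15.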

Additional observations from a re-analysis of the deposited data

Results flagged for a closer look

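In 3 of 90 sets of 4 U-H01 levels that were checked, 1 array stood apart from the other 3, and chance alone gives about 1 in 20. PLK1 was at 9.81 in the labelled induced B1 array of the second time point, against 10.09 to 10.15 in the others of that group. AURKB was at 9.55 in the labelled induced B1 array of the first time point, against 9.42 to 9.44, and HMMR at 7.83 in that array, against 7.50 to 7.54.

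By the test of the difference itself, in limma, 20 members changed differently with the labels in U-H01 than in HBL-1. They were 12 higher and 8 lower, against 15.5% and 17% of all genes. They made up 44.4% of the list, against 47.3% of genes above the median level. In at least 1 of 20 alternatives 10 of these calls were lost, SPC25 and NUF2 in 13 each. The change in U-H01 exceeded that in HBL-1 by 1.91 for DLGAP5, 1.54 for BUB1B, 1.18 for MKI67, 0.97 for CCNA2, 0.80 for AURKB, 0.79 for BIRC5 and 0.76 for KIF11. Smaller excesses were seen for CDK1 (0.74), PRC1 (0.61), SPC25 (0.51), BUB3 (0.47) and NUF2 (0.42). The difference was negative for CDC25C (-1.15), CENPF (-1.10), KIF14 (-0.79), CCNB1 (-0.72), TPX2 (-0.63), CENPE (-0.58), KIF2C (-0.53) and TOP2A (-0.44). Between the 2 populations of U-H01, the change of ANLN differed by -0.84, the 1 member called, against 0.228% of all genes lower and 0.38% higher. That call was lost in 16 of 21 alternatives.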

How the results depend on the processing

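No called member changed direction under any alternative. Centring shifts every gene of an array alike, so its counts below go with a like shift of all genes. With each array centred on its median, 12 members instead of 20 were lower in U-H01 (AURKA, CDC25B, CDCA8, HMMR, KIF23, KIFC1, MAD2L1 and PLK1 losing their calls) and 19 instead of 14 higher (CCNB2, CDC20, CDCA3, SKA1 and TTK gaining them), 5 instead of 8 were lower in the difference of the changes, and the median between the lines labelled induced was 0.062 instead of -0.015. With each line fitted alone, 2 members were lower in HBL-1 instead of 0, and 6 instead of 10 were higher in uninduced B2 than in B1, which was 0 with all probe sets tested. The 1 member whose change was lower in B2 than in B1 became 2 without the time point term, 5 with trend and robust options, 4 with only genes above the median level and 3 with quantile normalization. It became 0 with the replicate block, with each line alone, with centring and with all probe sets. Shares of all genes called are not given for the settings of this section. Its counts are therefore not read as particular to the members. The replicate block otherwise left the counts within 1.5 times, with 14 higher and 19 lower in U-H01, 0 and 0 in HBL-1, 14 and 16 between the uninduced lines, 15 and 10 between those labelled induced, 10 and 8 in the difference of changes and 8 higher in uninduced B2.

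With 1 array left out at a time, counts of higher and lower members were 11 to 15 and 17 to 20 in U-H01, 8 to 16 and 7 to 17 between the uninduced lines, 8 to 16 and 5 to 14 between the lines labelled induced and 6 to 12 and 4 to 10 in the difference of changes. The median between the lines labelled induced ran from -0.11 to 0.14. Lower members in the comparison of the changes of B2 and B1 were 0 to 1, higher members in uninduced B2 were 0 to 12, and the median of B2 minus B1 labelled induced ran from -0.094 to 0.05. Of called members, 23 of 34 kept the call in all settings in U-H01, 15 of 31 and 13 of 26 between the lines and 10 of 20 in the difference of changes. In fits without 1 HBL-1 array, the time difference of the other label filled its place. Counts between the lines in those fits therefore do not test that array alone. The causes of these shifts were not tested. The limits are the 2 arrays a group in HBL-1, the doubtful U-H01 labels and replicates that may be technical.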
